A study of Rattus norvegicus with 16 samples.

Results

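Lungs of male Sprague-Dawley rats kept in chronic hypoxia were compared with lungs of rats kept in normal air, using the 8 arrays of these untreated groups out of 16 arrays in the series. The groups were taken from the array titles: 4 arrays titled normoxia, called N1 to N4 here, and 4 titled hypoxia with no drug, called H1 to H4, with 1 rat per array. The hypoxic rats spent 2 weeks in a chamber at 362 mmHg, which corresponds to 10% oxygen at sea level, and the normoxic rats served as their controls. The other 8 rats, which had the same hypoxia with estradiol (75 µg/kg/day for 3 weeks) with or without the estrogen receptor antagonist fulvestrant (3 mg/kg/day), entered only the estimate of the spread. The labels name no genetic alteration in any group and give no age, and the sources used here do not say whether the normoxic and hypoxic rats carried empty pumps. RNA came from homogenised right lung after the vessels had been flushed with saline through the pulmonary artery, and every RNA integrity number was at least 9. The title and the protocol place N4 among the normoxic controls, whereas its treatment field reads hypoxia. It was kept with the normoxic rats, and its values are given separately where they bear on a result.

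Cells sense oxygen through prolyl hydroxylases, which mark the alpha subunits of the hypoxia-inducible factors (HIF) for destruction while oxygen is present; when oxygen falls, the subunits accumulate and switch on genes of glycolysis, red cell production and vessel growth. The small pulmonary arteries constrict in response to low alveolar oxygen, unlike arteries elsewhere in the body, and sustained constriction is followed by growth of muscle and matrix in their walls. Vasoconstrictor and vasodilator mediators, ion channels of smooth muscle, growth factors and matrix enzymes all take part in that remodelling, which raises the pressure against which the right ventricle pumps.

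Values are log2 RMA signals, and a change is the mean log2 value in hypoxia minus that in normoxia. Of 14506 genes tested, 817 (5.63%) passed an adjusted p of 0.05 in limma's moderated test: 465 (3.21%) were higher in hypoxia and 352 (2.43%) were lower. The changes were mostly small. Their median size was 0.46 on the log2 scale, which is 1.37-fold, and 65 genes changed at least 2-fold, 50 upward and 15 downward. The 4 hypoxia arrays lay wholly above or wholly below the 4 normoxia arrays for 1750 genes (12.1%), and for 736 of the 817 that passed. An unadjusted p under 0.05 in limma was reached by 2965 of the 14506 genes. Counts of list members given below stand against that number and against the 5.63% that passed. The median change over all genes was 0.03, the 12 markers that define lung tissue stood at a mean log2 level of 12.93 to 13.07 in normoxia and 12.91 to 13.03 in hypoxia, and array medians lay between 7.69 and 7.77. The count depended on single arrays: 428 genes passed without N1, 541 without N2, 442 without H1 and 515 without H2, whereas 986 passed without H3, and 372 passed whichever of the 8 arrays was omitted. With N4 counted as a hypoxic lung, 40 genes passed, of which 32 were among the 817. The balance of the directions was not stable either: 431 genes were higher and 447 lower with quantile normalization repeated, 484 probe sets higher and 488 lower with every probe set tested, and 375 genes higher and 409 lower without N3 and N4. Because whole lung was measured, fewer cells of a type and less RNA per cell cannot be told apart in any of these values.

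**Figure D1:**
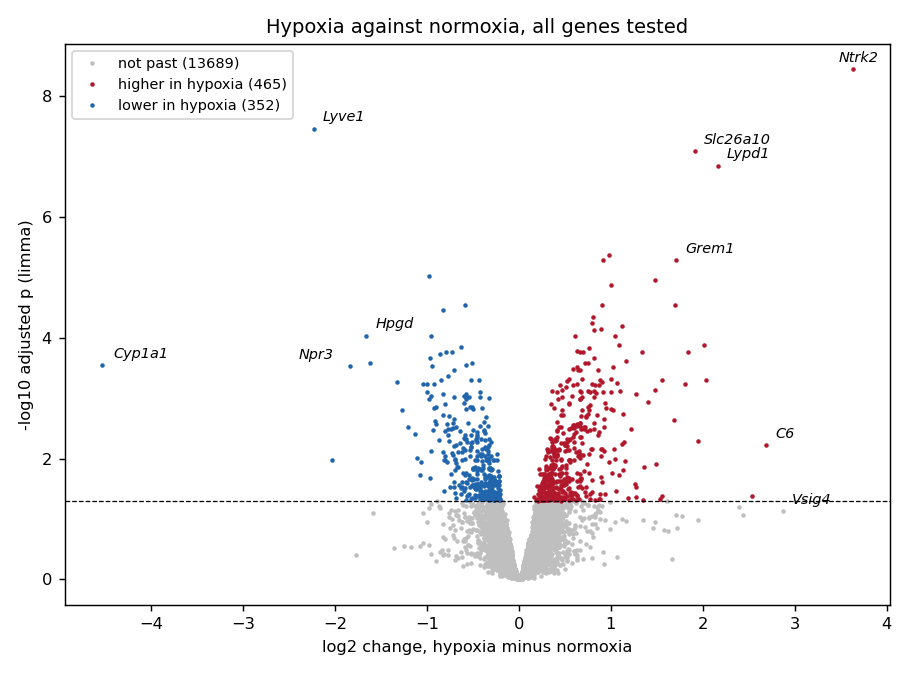
Each point is 1 of the 14506 genes, placed by its log2 change (hypoxia minus normoxia, horizontal axis) and by -log10 of its adjusted p (vertical axis, log scale); the dashed line marks an adjusted p of 0.05, with 465 genes higher in red and 352 lower in blue. Ntrk2 stands alone at the upper right, Cyp1a1 has the lowest change, and Vsig4 lies right of most genes but under the line.

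The lungs did not sit equally far along the path from normoxia to hypoxia. For each array the genes that passed without it were taken, and its position was expressed on a scale on which the mean of the remaining normoxia arrays is 0 and that of the remaining hypoxia arrays is 1. The median positions were -0.12, 0.09, 0.36 and 0.16 for N1 to N4 and 1.06, 0.88, 0.63 and 0.87 for H1 to H4. N3 and H3 were thus the lungs nearest the opposite group: N3 lay nearer to its own group for 65.5% of 811 genes and H3 for 60.6% of 986, against 93.0% of 428 for N1 and 94.3% of 442 for H1. N4, whose fields disagree, lay nearer to the normoxic lungs for 76.8% of 681 genes. The sets of genes differ in size and members from array to array, so these positions and percentages do not share 1 common scale.

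The largest increase was in Ntrk2, the receptor tyrosine kinase for brain-derived neurotrophic factor. Its log2 values were 7.48, 8.04, 7.10 and 7.95 in N1 to N4 and 11.42, 10.99, 11.40 and 11.29 in H1 to H4. All normoxic lungs were at or below 8.04 and all hypoxic lungs at or above 10.99, N4 included among the former (12.4-fold higher, log2 change 3.63, SE 0.16, adjusted p = 3.61e-09). Its ligand gene Bdnf did not pass: 7.72, 7.53, 7.67 and 7.42 in N1 to N4 and 7.82, 7.76, 7.73 and 7.73 in H1 to H4, a change of 0.18 (adjusted p = 0.202). Lypd1, a GPI-anchored protein of the Ly6 family, read 7.02, 6.77, 7.17 and 7.10 in N1 to N4 and 9.26, 9.20, 8.89 and 9.34 in H1 to H4. Here too the groups were far apart and each was tight (4.47-fold higher, log2 change 2.16, SE 0.14, adjusted p = 1.41e-07). Mgarp, a mitochondrial protein known as a HIF target, read 6.4, 6.22, 6.12 and 6.37 in N1 to N4 and 8.91, 7.99, 7.86 and 8.41 in H1 to H4, with every hypoxic lung higher and H1 the highest (4.04-fold higher, log2 change 2.01, SE 0.23, adjusted p = 0.000133).

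Several of the steepest increases were in transporters and secreted proteins. Slc26a10, a member of the anion exchanger family, gave 6.73, 6.65, 6.54 and 6.47 in N1 to N4 and 8.57, 8.45, 8.59 and 8.39 in H1 to H4, a narrow spread in both groups (3.75-fold higher, log2 change 1.91, SE 0.11, adjusted p = 8.04e-08). Grem1, a secreted antagonist of bone morphogenetic proteins, gave 6.13, 6.11, 6.28 and 6.55 in N1 to N4 and 7.90, 8.02, 8.09 and 7.90 in H1 to H4, and its groups did not overlap (3.28-fold higher, log2 change 1.71, SE 0.14, adjusted p = 5.17e-06). Cpxm2, a secreted carboxypeptidase-like protein, gave 9.31, 9.73, 9.30 and 8.84 in N1 to N4 and 11.29, 10.79, 10.84 and 11.04 in H1 to H4. The lowest hypoxic lung was 1.06 above the highest normoxic one (3.24-fold higher, log2 change 1.70, SE 0.17, adjusted p = 2.85e-05). Ecel1, a membrane metallopeptidase related to the endothelin-converting enzyme, gave 6.65, 6.77, 6.39 and 6.53 in N1 to N4 and 8.88, 7.66, 7.92 and 8.62 in H1 to H4. H1 and H4 were high, H2 and H3 lower, and none reached the normoxic range (3.22-fold higher, log2 change 1.69, SE 0.29, adjusted p = 0.0023).

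Or51e1, an olfactory receptor gene that is also expressed outside the nose, changed by 2.04 (adjusted p = 0.000503), and Rbp7, an intracellular retinol-binding protein, by 1.95 (adjusted p = 0.00516), with H4 at 8.88 and the other hypoxic lungs between 7.33 and 7.56. Serpina3n, a serine protease inhibitor of the acute phase, split the hypoxic lungs. Its values were 6.58, 6.24, 6.67 and 6.99 in N1 to N4 and 8.15, 10.50, 10.33 and 7.67 in H1 to H4. H2 and H3 were high and H1 and H4 were nearer to normoxia, and the call (5.82-fold higher, log2 change 2.54, SE 0.69, adjusted p = 0.0421) was lost without N1, N2, N3, N4, H2 or H3 (adjusted p 0.0636 to 0.127). The anion exchanger Slc26a4, known as pendrin and made by airway epithelium, varied likewise, from 7.60 in H3 to 9.50 in H4 against 6.44 to 7.31 in normoxia. It rose by 1.56 (adjusted p = 0.0421) and lost its call without any one of N1, N2, N3, N4, H1, H2 and H4 (0.0541 to 0.132).

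Among the decreases, Cyp1a1 was largest. This cytochrome P450, the classic target of the aryl hydrocarbon receptor, read 10.10, 10.84, 10.49 and 10.67 in N1 to N4 and 5.6, 6.19, 5.69 and 6.51 in H1 to H4. Even the highest hypoxic lung was 3.59 log2 units below the lowest normoxic one (23-fold lower, log2 change -4.53, SE 0.58, adjusted p = 0.000285). The SE is wide because the fit shares its spread with the drug-treated groups, whose SD for this gene was 1.54 with estradiol and 0.93 with fulvestrant added, against 0.32 in normoxia and 0.43 in hypoxia. Lyve1, the hyaluronan receptor of lymphatic endothelium, read 12.87, 12.57, 12.63 and 12.48 in N1 to N4 and 10.46, 10.59, 10.34 and 10.23 in H1 to H4. The groups were 1.89 log2 units apart at their nearest (4.7-fold lower, log2 change -2.23, SE 0.12, adjusted p = 3.45e-08). Npr3, the receptor that clears natriuretic peptides, read 10.61, 9.94, 10.23 and 9.90 in N1 to N4 and 8.32, 8.87, 8.28 and 7.83 in H1 to H4, with no overlap (3.59-fold lower, log2 change -1.84, SE 0.24, adjusted p = 0.000293).

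The 15 largest decreases also held 2 granzymes and 2 killer lectin-like receptors; no list of killer cell genes was tested. Gzma, a granzyme that cytotoxic lymphocytes release into their targets, read 9.83, 9.89, 9.56 and 9.61 in N1 to N4 and 7.87, 8.45, 8.64 and 8.63 in H1 to H4. H1 was the lowest and no hypoxic lung reached the normoxic range (2.51-fold lower, log2 change -1.32, SE 0.18, adjusted p = 0.00054). Gzmk, a neighbouring granzyme, changed by -1.11, and the killer lectin-like receptors Klri2 and Klrd1 by -1.27 and -1.04. Probe sets of granzymes and of killer lectin-like receptors can share signal with close relatives. Btla, an inhibitory receptor of B and T cells, changed by -1.07. It was high in N1 (9.05) and N4 (9.02), lower in N2 (7.84) and N3 (8.0), and lost its call without N1, N4, H1 or H2 (adjusted p 0.051 to 0.0717). Lypd8l1, a Ly6 family gene, read 9.39, 9.10, 8.62 and 8.98 in N1 to N4 and 8.07, 7.83, 7.75 and 7.66 in H1 to H4 and was 2.29-fold lower. Cacng3, a regulatory subunit of glutamate receptors, was uniformly low in hypoxia (5.59 to 5.78) and scattered in normoxia (6.20 to 7.63), a change of -1.06. It passed whichever array was left out but not in a fit of the 8 arrays alone (adjusted p = 0.0595 in limma).

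**Figure D2:**
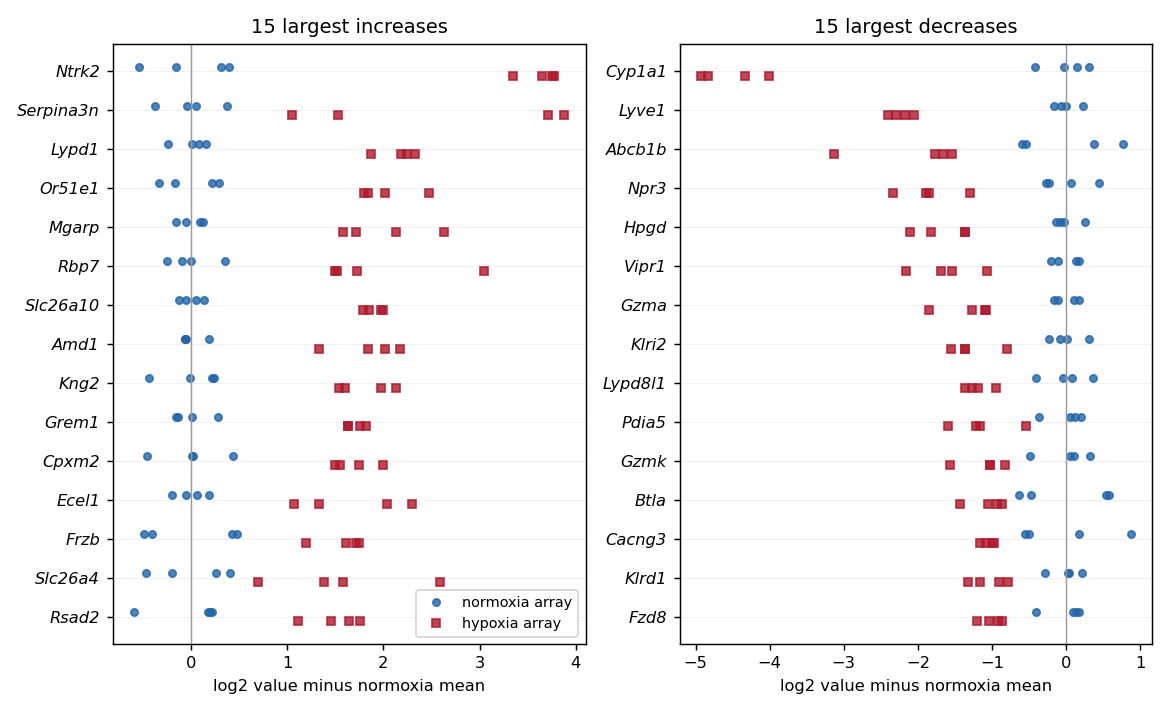
Log2 value minus the gene's normoxia mean (horizontal axis) for the 15 genes with the largest increases and the 15 with the largest decreases among those that passed with no overlap; circles are the 4 normoxia arrays and squares the 4 hypoxia arrays. Ntrk2 squares lie above 3 and Cyp1a1 squares below -4, while Serpina3n squares form a low and a high pair.

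HIF binds DNA at a core of CGTG preceded by A or G, so the promoters were searched for both forms, ACGTG and GCGTG, on both strands. The window was the 250 bases before the start of each gene, taken from RefSeq on the GRCr8 build, and 11950 tested genes had one. ACGTG occurred in 19.5% of all these promoters, in 65 of 358 genes called higher (18.2%) and in 54 of 288 called lower (18.8%). GCGTG occurred in 36.2%, 36.9% and 35.1% of the same sets, so for both forms the shares in the called genes were near those of all genes. Of the 15 largest increases, 14 had a promoter and 3 held ACGTG; of the 15 largest decreases, 13 had one and 2 held it. Those shown are Ldha, the lactate dehydrogenase subunit whose promoter sites are a textbook example of HIF binding, the 3 large increases that hold ACGTG, and 1 large decrease that holds it as well. Capitals mark ACGTG or its reverse complement CACGT, and where CACGTG is capitalised both strands match; GCGTG is left in lower case. A match describes the letters and says nothing of binding in these lungs.
Ldha (chr1:106507842-106508091, plus strand): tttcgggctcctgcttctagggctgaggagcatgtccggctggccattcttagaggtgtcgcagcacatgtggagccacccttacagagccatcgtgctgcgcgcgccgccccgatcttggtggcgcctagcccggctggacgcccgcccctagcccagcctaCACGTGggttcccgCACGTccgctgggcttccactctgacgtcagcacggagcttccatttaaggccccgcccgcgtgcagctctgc
Lypd1 (chr13:39921122-39921371, minus strand): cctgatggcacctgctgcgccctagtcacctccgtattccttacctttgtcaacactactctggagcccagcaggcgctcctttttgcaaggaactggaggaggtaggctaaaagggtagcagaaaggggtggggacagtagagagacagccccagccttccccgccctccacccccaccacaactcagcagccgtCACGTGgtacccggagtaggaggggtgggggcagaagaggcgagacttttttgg
Mgarp (chr2:137590295-137590544, minus strand): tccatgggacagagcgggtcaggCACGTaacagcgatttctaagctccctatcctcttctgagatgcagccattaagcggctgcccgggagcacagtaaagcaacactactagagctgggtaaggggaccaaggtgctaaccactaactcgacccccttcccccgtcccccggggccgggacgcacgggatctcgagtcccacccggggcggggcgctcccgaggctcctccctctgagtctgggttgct
Kng2 (chr11:91418220-91418469, plus strand): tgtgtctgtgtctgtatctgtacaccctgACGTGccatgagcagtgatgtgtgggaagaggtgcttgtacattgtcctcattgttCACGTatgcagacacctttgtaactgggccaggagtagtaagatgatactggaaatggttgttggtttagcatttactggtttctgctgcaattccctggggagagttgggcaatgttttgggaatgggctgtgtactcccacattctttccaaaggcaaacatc
Gzmk (chr2:46582016-46582265, minus strand): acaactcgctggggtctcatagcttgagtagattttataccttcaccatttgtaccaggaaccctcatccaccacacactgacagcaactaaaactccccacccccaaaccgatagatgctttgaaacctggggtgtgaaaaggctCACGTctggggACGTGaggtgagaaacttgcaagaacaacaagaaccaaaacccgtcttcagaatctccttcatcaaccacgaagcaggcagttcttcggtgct
Ldha holds 3 matches close together, Lypd1 has a CACGTG near its start, and Gzmk, which was lower in hypoxia, carries CACGT and ACGTG as separate matches.

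The oxygen-sensing machinery itself moved little. Of 19 HIF subunits and oxygen sensors, 1 was lower, 0 were higher, and 6 had an unadjusted p under 0.05 in limma; their median change was -0.06. Epas1, which encodes HIF-2 alpha and is abundant in lung endothelium, read 13.70, 13.64, 13.61 and 13.62 in N1 to N4 and 13.34, 13.44, 13.54 and 13.33 in H1 to H4. Hypoxic lungs were all lower, though H3 came within 0.07 of the nearest normoxic lung (1.17-fold lower, log2 change -0.23, SE 0.06, adjusted p = 0.025), and the call was lost without N1, N2, H1 or H4 (0.0569 to 0.0879). Hif1a read 11.25, 11.35, 11.24 and 11.19 in N1 to N4 and 11.50, 11.35, 11.44 and 11.55 in H1 to H4. Its groups did not overlap, though N2 and H2 both round to 11.35, and it did not pass (0.20, adjusted p = 0.0754). The hydroxylases Egln1 (-0.02, adjusted p = 0.931) and Egln3 (0.47, adjusted p = 0.213) did not pass, and Vegfa, the endothelial growth factor known as a HIF target, was at 12.29 to 12.48 in normoxia and 12.27 to 12.34 in hypoxia (adjusted p = 0.421).

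Single genes of lactate and pyruvate handling rose. Slc16a3, the lactate exporter, read 8.92, 8.79, 8.82 and 8.83 in N1 to N4 and 9.92, 9.82, 9.43 and 9.78 in H1 to H4. H3 was the lowest hypoxic lung and still above normoxia (1.87-fold higher, log2 change 0.90, SE 0.18, adjusted p = 0.00696). Ldha, whose promoter is printed above, read 12.72, 12.79, 13.06 and 12.93 in N1 to N4 and 13.21, 13.21, 13.21 and 13.31 in H1 to H4 (1.28-fold higher, log2 change 0.36, SE 0.08, adjusted p = 0.0107). Pdk1, the kinase that switches off pyruvate dehydrogenase, read 8.90, 8.97, 8.87 and 8.98 in N1 to N4 and 9.46, 9.35, 9.34 and 9.58 in H1 to H4, with no overlap (1.42-fold higher, log2 change 0.50, SE 0.10, adjusted p = 0.00593). Slc16a3 and Ldha were the 2 of 16 genes for pH, lactate and carbonic acid handling that passed (4 did without H3), and Pdk1 was the only one of 19 genes of the citrate cycle and pyruvate entry (2 passed without N4 or H3). None of 45 respiratory chain subunits passed in limma, 3 had an unadjusted p under 0.05, and their changes ran from -0.15 to 0.37 with a median of 0.04.

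Other metabolic lists gave isolated calls. The share past the test was 13.3% of polyamine, 13.8% of fatty acid and 4.76% of retinoid genes, against 5.63% of all genes. Amd1, the decarboxylase that commits S-adenosylmethionine to polyamine synthesis, read 9.24, 9.25, 9.24 and 9.49 in N1 to N4 and 11.48, 10.63, 11.14 and 11.32 in H1 to H4. N4 was slightly above the other normoxic lungs, and all hypoxic lungs were at least 1.14 higher (3.57-fold higher, log2 change 1.84, SE 0.22, adjusted p = 0.000173). With Arg1, the arginase that supplies ornithine (0.66, adjusted p = 0.00856), 2 of 15 polyamine genes rose and none fell. In fatty acid handling 3 of 29 rose and 1 fell. Gpihbp1, which anchors lipoprotein lipase on capillaries, rose by 0.86 and the nuclear receptor Pparg by 0.63, whereas Fabp4 (0.88) lost its call without N1, N2, H1 or H4 (0.11 to 0.159) and the dehydrogenase Acadm (-0.27) without any array but N2 (0.0609 to 0.127). Rbp7 was the only 1 of 21 retinoid genes that passed, and 0 of 16 cholesterol genes passed in limma, with 4 at an unadjusted p under 0.05.

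A few iron and metal genes rose, and red cell markers were high in 3 of the 4 hypoxic lungs. Of 29 genes for iron, haem and copper handling 4 rose and none fell, with a median change of 0.17. Cp, the copper-carrying ferroxidase ceruloplasmin, read 11.47, 11.18, 11.17 and 10.92 in N1 to N4 and 11.70, 11.80, 11.77 and 11.69 in H1 to H4 (1.47-fold higher, log2 change 0.55, SE 0.10, adjusted p = 0.00497), and Steap3, a ferrireductase of red cell precursors, rose by 0.46 (adjusted p = 0.0101). Mt1, a metallothionein, and Hmox1, the haem-degrading oxygenase, changed by 0.94 and 0.87, but each lost its call without any one array other than H3 (Mt1 0.0562 to 0.118, Hmox1 0.0658 to 0.139). In both genes H3 was the lowest hypoxic lung, at 10.83 and 8.31. The mean of 15 erythroid markers, taken relative to normoxia, was 1.14, 0.92 and 0.98 in H1, H2 and H4 and -0.06 in H3, against -0.13 to 0.16 in normoxia. H3 alone was at the normoxic level, so that 1 of the 15 (Hemgn, 1.27, adjusted p = 0.0431) passed with all arrays and 8 passed without H3. Hemgn lost its call without any one array other than H3 (0.0734 to 0.143). The part of residual blood in the iron list was not tested.

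Genes for clearing foreign compounds fell where they passed. Of 26 on that list 4 were lower and 0 higher, and all 9 with an unadjusted p under 0.05 were lower; the median change was -0.09. Besides Cyp1a1 these were Abcb1b and Abcb1a, the rat's paired P-glycoprotein efflux pumps, and Cyp4b1, a cytochrome P450 abundant in lung. Abcb1b read 11.94, 10.57, 11.54 and 10.62 in N1 to N4 and 9.63, 9.40, 9.50 and 8.04 in H1 to H4. Normoxic lungs formed a high pair (N1, N3) and a lower pair (N2, N4), and H4 was far below the other hypoxic lungs (4.07-fold lower, log2 change -2.03, SE 0.43, adjusted p = 0.0106). Abcb1a (-0.97) lost its call without N1 or H4 (0.0598 and 0.0748) and Cyp4b1 (-0.31) without N1, N4, H1 or H4 (0.0538 to 0.0718). The 2 Abcb1 genes are near copies whose probes may share signal. Ahr itself (-0.30, adjusted p = 0.0646) and its target Cyp1b1 (-0.05, adjusted p = 0.898) did not pass.

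**Figure D3:**
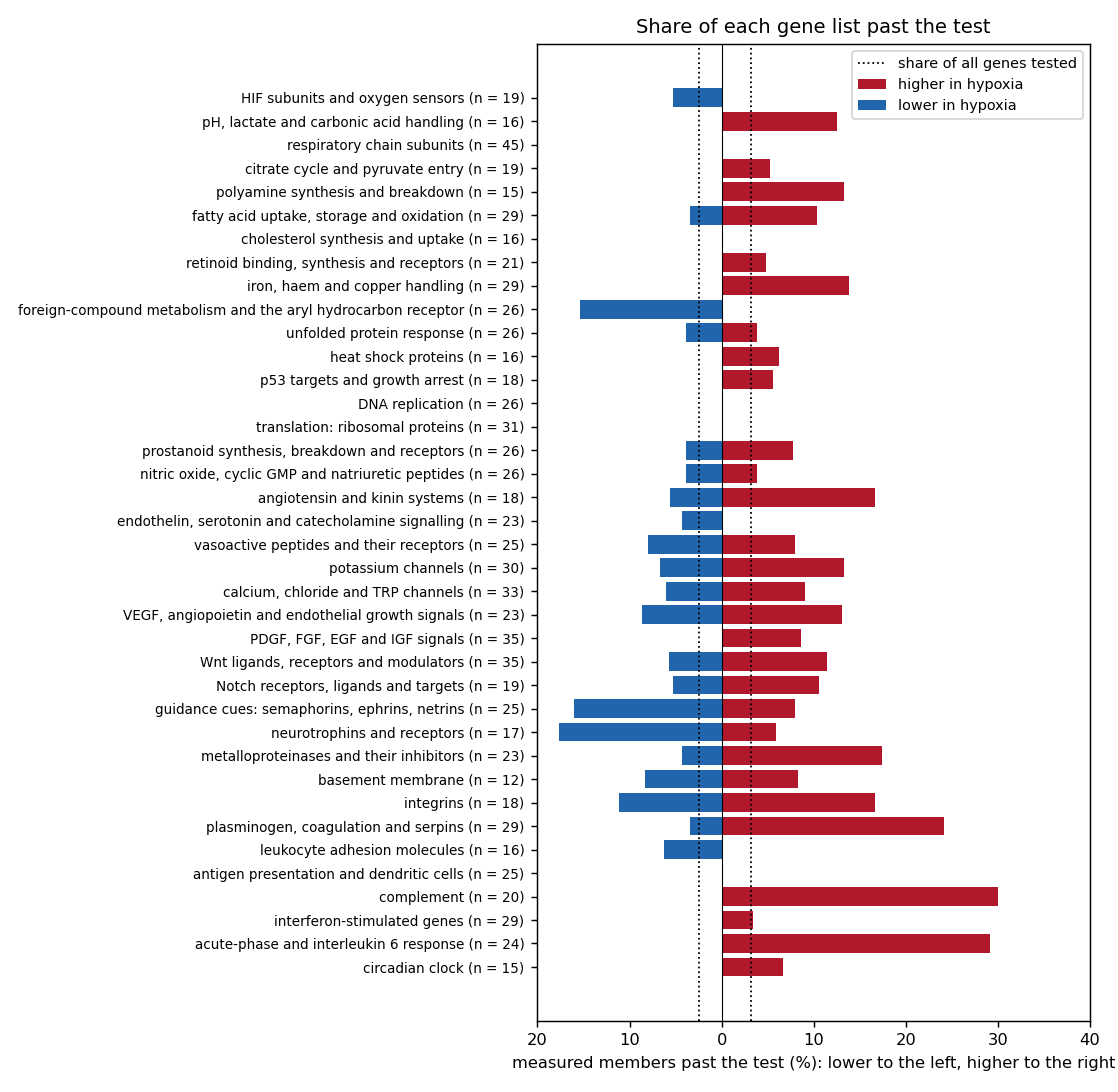
Percent of the measured members of each of 38 gene lists that passed, with genes lower in hypoxia drawn to the left and genes higher to the right; dotted lines mark the share of all genes tested (2.43% lower and 3.21% higher). Complement, acute-phase genes and the plasminogen, coagulation and serpin list reach farthest right, and neurotrophins and guidance cues farthest left.

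Vasodilator and vasoconstrictor systems changed at selected steps. In the prostanoid pathway 2 of 26 genes rose and 1 fell, with a median change of 0.13. Hpgd, the dehydrogenase that inactivates prostaglandins in the lung circulation, read 10.74, 11.07, 10.68 and 10.79 in N1 to N4 and 9.00, 8.72, 9.45 and 9.46 in H1 to H4. Hypoxic lungs were all at least 1.22 log2 units lower (3.17-fold lower, log2 change -1.66, SE 0.18, adjusted p = 9.23e-05). Ptges, the inducible prostaglandin E synthase, read 7.48, 7.66, 7.7 and 7.59 in N1 to N4 and 8.76, 8.69, 8.65 and 8.34 in H1 to H4 (2-fold higher, log2 change 1.0, SE 0.14, adjusted p = 0.000482), and Ptgis, which makes prostacyclin, rose by 0.60 (adjusted p = 0.00392). Both synthases were thus higher while the inactivating enzyme was lower. Without H3 the number of higher members was 6.

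The nitric oxide and natriuretic peptide list had 1 higher and 1 lower gene among 26. Nos3, the endothelial nitric oxide synthase, read 9.01, 8.88, 8.90 and 8.96 in N1 to N4 and 9.65, 9.65, 9.48 and 9.36 in H1 to H4. Normoxic lungs spanned only 0.13 and the hypoxic lungs began 0.35 above them (1.51-fold higher, log2 change 0.59, SE 0.08, adjusted p = 0.00033). Npr3, given above, was the member that fell. In the kinin and angiotensin list 3 of 18 rose and 1 fell, and its mean over members was 0.22 to 0.25 above normoxia in all 4 hypoxic lungs. The median change was only 0.08, and the 3 that rose, Kng2 (1.81), Kng1 (1.40) and Agt (0.77), weigh heavily on that mean. Kng2, a kininogen gene whose product is cut to bradykinin-type peptides, read 8.77, 8.53, 8.75 and 8.10 in N1 to N4 and 10.14, 10.08, 10.67 and 10.51 in H1 to H4. Its relative Kng1 read 8.99, 8.76, 9.08 and 8.86 in N1 to N4 and 10.09, 10.15, 10.64 and 10.40 in H1 to H4. Both rose with no overlap (3.51-fold higher, log2 change 1.81, SE 0.25, adjusted p = 0.000578 for Kng2; 2.64-fold for Kng1), although the genes are near copies and their probes may share signal.

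Angiotensinogen (Agt), the precursor of angiotensin, read 8.44, 8.14, 8.63 and 8.48 in N1 to N4 and 8.99, 9.40, 8.68 and 9.72 in H1 to H4. H3 was only 0.05 above N3, and the call (0.77, adjusted p = 0.0382) was lost without N1, N2, N4, H1, H2 or H4 (0.0602 to 0.109). Ace, the endothelial enzyme that makes angiotensin II and degrades kinins, read 13.19, 13.03, 13.04 and 13.03 in N1 to N4 and 12.80, 12.92, 12.92 and 12.76 in H1 to H4; it fell by 0.23 on the log2 scale and lost its call without N1, H1 or H4 (0.0732 to 0.0963). Slc6a4, the serotonin transporter, was the only 1 of 23 endothelin, serotonin and catecholamine genes to pass. It read 9.87, 9.96, 10.14 and 10.01 in N1 to N4 and 9.16, 9.05, 8.83 and 9.06 in H1 to H4, with a wide gap between groups (1.96-fold lower, log2 change -0.97, SE 0.12, adjusted p = 0.000213). Edn1, encoding the constrictor endothelin-1, did not pass. Its values were 11.34, 10.09, 10.60 and 10.29 in N1 to N4 and 11.49, 11.57, 11.66 and 10.29 in H1 to H4, so that N1 came close to the high hypoxic lungs and H4 was level with N4 (adjusted p = 0.329).

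Receptors for vasoactive peptides gave 2 higher and 2 lower of 25. Vipr1, the receptor for the dilator and bronchodilator vasoactive intestinal peptide, read 12.37, 12.03, 12.12 and 12.40 in N1 to N4 and 10.54, 10.69, 11.16 and 10.07 in H1 to H4. H4 was the lowest and H3 the highest of the hypoxic lungs, and both were under normoxia (3.07-fold lower, log2 change -1.62, SE 0.20, adjusted p = 0.000264). Its relative Vipr2 (-0.33, adjusted p = 0.0482) did not pass in any of the 8 fits without 1 array, N1 to H4 (0.0572 to 0.138). The adrenomedullin co-receptor Ramp3 (0.59) and the apelin receptor Aplnr (0.35) rose, Ramp3 losing its call without any array but H3 (0.0525 to 0.146) and Aplnr without N1, N3, N4, H1 or H4 (0.0512 to 0.121).

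Ion channel genes changed in both directions. Of 30 potassium channel genes 4 rose and 2 fell, but no fit without 1 array gave 4 higher members: there were 1 without N1 or H1, 2 without N2, H2 or H3, and 3 without N3, N4 or H4. Kcnmb1, the smooth muscle subunit of the large-conductance calcium-activated channel, read 9.88, 10.02, 10.04 and 10.16 in N1 to N4 and 10.56, 10.53, 10.62 and 10.56 in H1 to H4. The hypoxic lungs agreed within 0.09 (1.46-fold higher, log2 change 0.54, SE 0.11, adjusted p = 0.00717). The pore subunit of the same channel, Kcnma1 (0.50), overlapped between groups because N4 (7.31) exceeded H4 (7.12), and lost its call without N1, N2, H1, H2 or H3 (0.0539 to 0.0855). The other increases were Kcne4, a channel accessory subunit (0.45, adjusted p = 0.0306), and Kcnn3, a small-conductance calcium-activated channel (0.38, adjusted p = 0.0484). Kcnab2, a voltage-gated channel subunit, fell by 0.50 (adjusted p = 0.00342), as did Kcne3, by 0.74, which lost its call without N1 or H1 (0.0659 and 0.0714). Kcna5 (0.23, adjusted p = 0.432) and Kcnk3 (0.30, adjusted p = 0.064), the channels most often tied to hypoxic constriction and inherited pulmonary hypertension, did not pass.

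Among 33 calcium, chloride and TRP channel genes 3 rose and 2 fell. Trpc6, a receptor-operated calcium channel of pulmonary artery muscle, read 8.33, 8.29, 8.36 and 8.44 in N1 to N4 and 9.18, 8.81, 9.02 and 9.04 in H1 to H4. Every hypoxic lung was above every normoxic one (1.58-fold higher, log2 change 0.66, SE 0.10, adjusted p = 0.00103). Trpv2 (0.59) and the store-operated channel pore Orai1 (0.30) also rose and the calcium pump Atp2b4 (-0.30) fell. These 3 calls were less firm: Trpv2 was lost without N1, N2, N4, H1, H2 or H4 (0.0565 to 0.126), Orai1 without any array but H3 (0.055 to 0.136), and Atp2b4 without N2, N3, N4, H1, H2 or H4 (0.0545 to 0.0848).

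**Figure D4:**
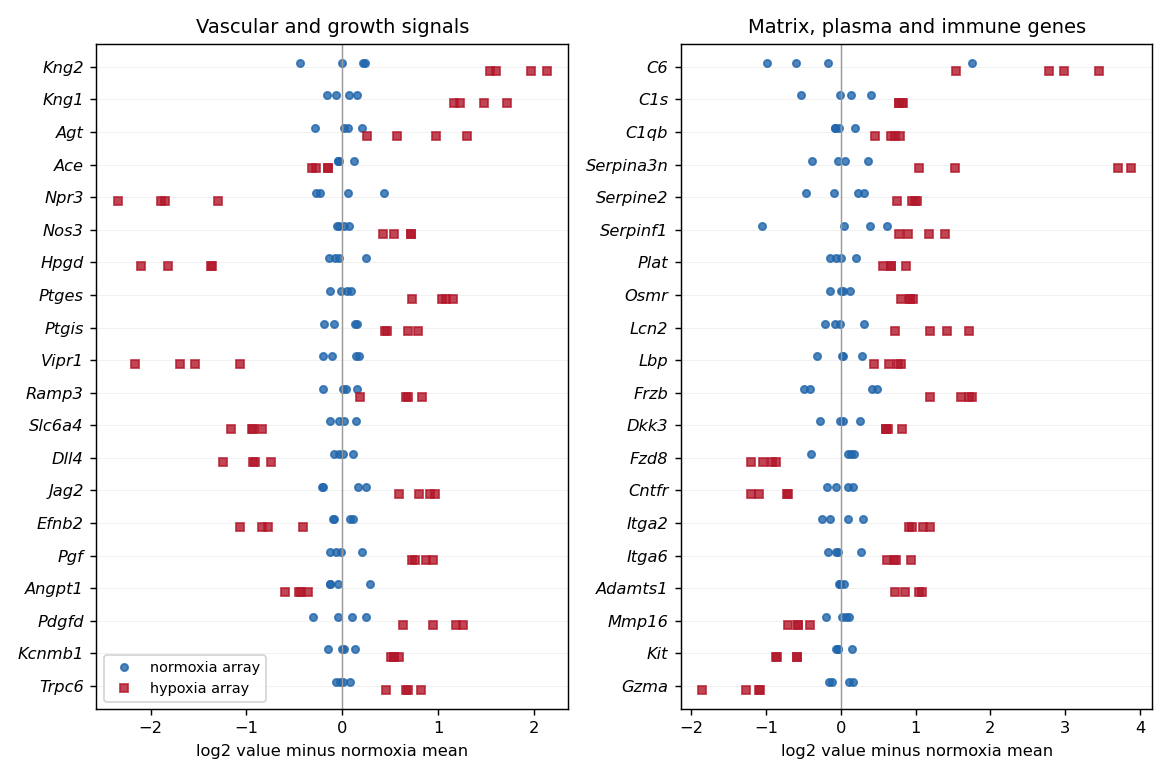
Log2 value minus the normoxia mean (horizontal axis) for 20 genes of vascular and growth signalling (left) and 20 genes of matrix, plasma proteins and immunity (right), with circles for the 4 normoxia arrays and squares for the 4 hypoxia arrays. Kng2, Ptges and Pgf squares lie right of all circles, Npr3, Hpgd and Dll4 squares left of them, and C6 circles and squares overlap through N3.

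Endothelial growth signals shifted between family members. Of 23 genes 3 rose and 2 fell, with a median change of 0.13, and the 3 increases passed in all 8 fits without 1 array, whereas 0 fell in limma without N1 and 1 without N4, H1 or H4. Pgf, placental growth factor, a VEGF relative, read 8.30, 8.03, 7.97 and 8.08 in N1 to N4 and 9.04, 8.97, 8.82 and 8.85 in H1 to H4 (1.77-fold higher, log2 change 0.82, SE 0.09, adjusted p = 7.55e-05). The endothelial guidance receptor Robo4 gave 8.69, 8.72, 8.72 and 8.77 in N1 to N4 and 9.65, 9.56, 9.41 and 9.47 in H1 to H4, with a normoxic spread of 0.08 (1.74-fold higher, log2 change 0.80, SE 0.08, adjusted p = 5.64e-05). Egfl7, a secreted endothelial protein, rose by 0.73 (adjusted p = 0.00204). Against these, the vessel-stabilising ligand Angpt1 read 10.80, 10.39, 10.47 and 10.39 in N1 to N4 and 10.06, 10.08, 9.92 and 10.16 in H1 to H4 and fell by 0.46, a call lost without N1 (0.0561). Kdr, the main VEGF receptor, at 12.18 to 12.25 in normoxia and 11.92 to 12.05 in hypoxia, had no overlap and still missed the threshold (adjusted p = 0.079).

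Some growth factors for mesenchymal cells rose. Of 35 PDGF, FGF, EGF and IGF genes 3 were higher and 0 lower (8.57%, against 5.63% of all genes). Pdgfd, a platelet-derived growth factor that stimulates smooth muscle, read 8.82, 8.97, 8.56 and 9.12 in N1 to N4 and 10.13, 9.50, 10.05 and 9.81 in H1 to H4. The lowest hypoxic lung, H2, was 0.38 above the highest normoxic one (2-fold higher, log2 change 1.0, SE 0.16, adjusted p = 0.00151). Igf2, an insulin-like growth factor, rose by 0.60 (adjusted p = 0.0105), and Pdgfrb, the PDGF receptor of pericytes and smooth muscle, by 0.28, a call lost without N1 or H1 (0.0697 and 0.0756). Bmpr2, the receptor mutated in heritable pulmonary hypertension, read 12.96 to 13.05 in normoxia and 12.68, 12.74, 12.98 and 12.76 in H1 to H4. H3 was at the normoxic level and the change of -0.21 did not pass (adjusted p = 0.0562).

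In the Wnt list 4 of 35 genes rose and 2 fell; 2 rose without N2 or H1, and 1 fell without N1, N4, H1, H2 or H4. Frzb, a secreted Wnt antagonist, read 8.44, 7.53, 7.61 and 8.50 in N1 to N4 and 9.63, 9.77, 9.73 and 9.21 in H1 to H4. Normoxic lungs split into a lower pair (N2, N3) and a higher pair (N1, N4), both under hypoxia (2.96-fold higher, log2 change 1.56, SE 0.22, adjusted p = 0.000503). Dkk3, of the Dickkopf family, gave 10.01, 10.28, 10.54 and 10.32 in N1 to N4 and 11.10, 10.92, 10.89 and 10.89 in H1 to H4 (1.58-fold higher, log2 change 0.66, SE 0.10, adjusted p = 0.000762). The ligand Wnt5b rose by 0.68 but lost its call without N2 or H1 (0.0665 and 0.0806). Fzd8, a Frizzled receptor, read 10.80, 10.31, 10.85 and 10.88 in N1 to N4 and 9.79, 9.51, 9.67 and 9.84 in H1 to H4, and every hypoxic lung was lower (2.01-fold lower, log2 change -1.0, SE 0.14, adjusted p = 0.000582).

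Notch ligands changed in both directions. Dll4, a Notch ligand of arteries and vessel tips, read 11.57, 11.37, 11.42 and 11.46 in N1 to N4 and 10.21, 10.71, 10.52 and 10.54 in H1 to H4. The groups were 0.66 apart at their nearest (1.94-fold lower, log2 change -0.96, SE 0.11, adjusted p = 9.23e-05). The other Notch ligands to pass went the other way: Jag2, at 9.04, 9.03, 9.41 and 9.49 in N1 to N4 and 10.16, 10.04, 10.21 and 9.83 in H1 to H4, was 1.76-fold higher (adjusted p = 0.0033), and Jag1 rose by 0.32 (adjusted p = 0.00709). In all 2 of 19 Notch genes rose and 1 fell (2 fell without H3). Of 25 guidance genes 4 fell and 2 rose; without N1, N2, H1 or H4 only 2 fell. Efnb2, an ephrin ligand, read 11.54, 11.51, 11.33 and 11.34 in N1 to N4 and 10.36, 10.66, 11.02 and 10.59 in H1 to H4, with H3 the nearest to normoxia (1.71-fold lower, log2 change -0.77, SE 0.14, adjusted p = 0.0033). The ephrin receptor Epha3 fell by 0.71 (adjusted p = 0.00627), and the semaphorin receptor Plxna2 and the ephrin ligand Efna1 fell by 0.36 and 0.22 (adjusted p = 0.0193 and 0.024), whereas Ntn1, a netrin, rose by 0.46 and Sema3c by 0.37 (adjusted p = 0.00298 and 0.00663).

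Of 17 neurotrophin and receptor genes Ntrk2 was the only 1 to rise and 3 fell, with a median change of 0.06. Cntfr, the alpha receptor for ciliary neurotrophic factor, read 9.31, 9.03, 9.15 and 9.38 in N1 to N4 and 8.12, 8.51, 8.50 and 8.02 in H1 to H4. No hypoxic lung reached the normoxic range (1.9-fold lower, log2 change -0.93, SE 0.17, adjusted p = 0.00342). Its ligand Cntf fell by 0.50, which was lost without H2 (0.0523), and Gfra2, a receptor for neurturin, fell by 0.48, which was lost without N1, N2, N3, H1, H2 or H3 (0.0564 to 0.0778).

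Of 23 metalloproteinase and inhibitor genes 4 rose and 1 fell (median 0.13), and 2 rose without N1, N4, H1, H2 or H4. Adamts1, a secreted protease that cleaves proteoglycans, read 10.46, 10.51, 10.45 and 10.46 in N1 to N4 and 11.51, 11.20, 11.33 and 11.55 in H1 to H4. The normoxic lungs agreed within 0.06 (1.9-fold higher, log2 change 0.93, SE 0.16, adjusted p = 0.00221). Mmp23 rose by 0.76 (adjusted p = 0.00155) and the membrane-bound Mmp16 fell by 0.57 (adjusted p = 0.000943). The inhibitor Timp1 (0.57) overlapped, since N2 (11.77) exceeded H3 (11.74), and lost its call without N1, N4, H1, H2 or H4 (0.0683 to 0.129).

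Integrins, the receptors for matrix, changed in both directions. Itga2, a collagen receptor subunit, read 8.76, 9.20, 9.00 and 8.65 in N1 to N4 and 10.00, 9.81, 10.09 and 9.85 in H1 to H4. All hypoxic lungs were at least 0.61 higher (2.05-fold higher, log2 change 1.04, SE 0.12, adjusted p = 9.23e-05). Itga6, a laminin receptor subunit, rose by 0.75 (adjusted p = 0.000264). The leukocyte integrins Itga4 and Itgb7 fell by 0.46 and 0.45, Itga4 losing its call without N1 or H2 (0.0539 and 0.0701) and Itgb7 without H2 (0.0523). Together 3 of 18 integrins rose and 2 fell. In the basement membrane list Col4a1, a type IV collagen chain, rose by 0.48 (adjusted p = 0.00378) and Lama3, an epithelial laminin chain, fell by 0.33, losing its call without N1, N2, N3, H1, H2 or H4 (0.0502 to 0.0913).

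More serpin, plasminogen and coagulation genes rose than fell. Of 29 on that list 7 rose and 1 fell, with a median change of 0.28 against 0.03 over all genes. The 7 were Serpina3n, Serpinf1, Serpine2, Plat, Tfpi2, the clotting factor F10 and Serping1. The 1 that fell was Tfpi, the tissue factor pathway inhibitor. Their mean above normoxia was 0.32, 0.37, 0.30 and 0.28 in H1 to H4 and -0.07 to 0.04 in normoxia. The list was chosen with earlier results of these data known, so the contrast with all genes is a description and no test. Serpina3n also counts in the acute-phase list. Plat, the tissue plasminogen activator, read 11.68, 11.41, 11.33 and 11.47 in N1 to N4 and 12.14, 12.34, 12.14 and 12.03 in H1 to H4 (1.62-fold higher, log2 change 0.69, SE 0.11, adjusted p = 0.00158). Serpine2, an inhibitor of thrombin and plasminogen activators, read 7.94, 8.64, 8.72 and 8.32 in N1 to N4 and 9.35, 9.15, 9.43 and 9.40 in H1 to H4. N1 was low and every hypoxic lung was higher than every normoxic lung (1.9-fold higher, log2 change 0.93, SE 0.19, adjusted p = 0.00741). Serpinf1, pigment epithelium-derived factor, had an outlying N1 (8.24, against 9.34 to 9.92) and lost its call without N1, N4, H1, H2 or H3 (0.0588 to 0.113). Leaving out 1 array gave 3 to 5 higher members in place of 7, with 3 without H2 and 4 without N1, N2 or H1.

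Complement genes that passed all rose. Of 20 members 6 did, and 5 or 6 without any 1 array; the median change was 0.24. C6, a component of the membrane attack complex, read 7.65, 8.03, 10.39 and 8.46 in N1 to N4 and 11.41, 10.17, 12.09 and 11.61 in H1 to H4. N3 stood above H2, so the groups overlapped despite the size of the change (6.46-fold higher, log2 change 2.69, SE 0.52, adjusted p = 0.00593). Leaving out 1 array moved the C6 change between 2.36 and 3.28. C1qb, a chain of the complement starter C1q made by macrophages, read 9.17, 9.12, 9.39 and 9.12 in N1 to N4 and 9.87, 9.93, 9.66 and 9.99 in H1 to H4, and C1qc, another chain, 9.11, 9.29, 9.54 and 9.58 in N1 to N4 and 10.02, 10.07, 9.84 and 10.26 in H1 to H4. Both were higher in every hypoxic lung (1.58-fold higher, log2 change 0.66, SE 0.09, adjusted p = 0.000337 for C1qb; 0.67 with adjusted p = 0.00103 for C1qc). The protease C1s gave 8.68, 9.20, 9.61 and 9.34 in N1 to N4 and 10.02, 9.99, 9.98 and 10.04 in H1 to H4. Hypoxic lungs lay within 0.06 of one another (1.74-fold higher, log2 change 0.80, SE 0.16, adjusted p = 0.00698).

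Acute-phase and interleukin 6 response genes also rose, less evenly. Of 24 members 7 rose and none fell, with a median change of 0.17. Among the 7, Serpina3n also counts in the serpin list and Timp1 in the metalloproteinase and inhibitor list. Osmr, the receptor for oncostatin M, read 9.50, 9.47, 9.59 and 9.32 in N1 to N4 and 10.27, 10.40, 10.39 and 10.44 in H1 to H4. The hypoxic lungs were tight and well above normoxia (1.87-fold higher, log2 change 0.90, SE 0.09, adjusted p = 2.85e-05). Lcn2, the iron-binding lipocalin, read 11.46, 11.40, 11.78 and 11.26 in N1 to N4 and 12.67, 12.89, 12.20 and 13.19 in H1 to H4, with H3 lowest and H4 highest among hypoxic lungs. It rose by 1.26 and lost its call without N1, N2, N4, H1, H2 or H4 (0.0663 to 0.0791). Lbp, the lipopolysaccharide-binding protein, rose by 0.67 and lost its call without N1, N4, H1, H2 or H4 (0.0539 to 0.105). The list's count fell from 7 to 1 without N4 or H2, to 2 without N1, to 3 without N2, H1 or H4, and to 5 without N3 or H3.

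Most interferon genes lay above normoxia, but only 1 passed, and N4 was low. Of 29 on the list 24 were above 0 and 5 below, with a median change of 0.31. An unadjusted p under 0.05 in limma was reached by 8, of which 7 were higher. Rsad2, the antiviral protein viperin, read 8.16, 8.12, 8.14 and 7.35 in N1 to N4 and 9.70, 9.40, 9.05 and 9.58 in H1 to H4. N4 was low, yet the other normoxic lungs were also under all hypoxic lungs (2.8-fold higher, log2 change 1.49, SE 0.32, adjusted p = 0.0121), and it was the only 1 of 29 to pass. The mean over the list was 0.24 to 0.40 above normoxia in hypoxia; in normoxia it was 0.24 in N1 and -0.50 in N4. Of 25 antigen presentation genes 0 passed in limma and 1 had an unadjusted p under 0.05. Spn, the leukocyte sialoglycoprotein CD43, was the only 1 of 16 adhesion genes to pass and fell by 0.53 (adjusted p = 0.0091).

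Stress, replication and translation genes mostly did not pass. None of 26 DNA replication genes passed in limma, although 9 had an unadjusted p under 0.05, all higher, and the median change was 0.20. Among all 14506 genes, 2965 had an unadjusted p that low. None of 31 ribosomal protein genes passed either, with 2 at an unadjusted p under 0.05 and a median of -0.02. Among 26 unfolded protein response genes Pdia5, a protein disulfide isomerase of the endoplasmic reticulum, read 9.79, 10.21, 10.37 and 10.28 in N1 to N4 and 9.00, 8.95, 9.62 and 8.57 in H1 to H4, with every hypoxic lung lower (2.19-fold lower, log2 change -1.13, SE 0.21, adjusted p = 0.00395). The chaperone cofactor Sdf2l1 rose by 0.50 and lost its call without N1, N2, N3, H1, H2 or H4 (0.0559 to 0.153). Plk2, a p53-responsive kinase, rose by 0.56 (adjusted p = 0.0107), the heat shock cochaperone Bag3 by 0.36, lost without N1, N2, N3, H1 or H2 (0.0515 to 0.0826), and the clock gene Bhlhe40, also known as a HIF target, by 0.83, lost in every fit without 1 of N1 to H4 (0.0525 to 0.144).

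Few markers of lung cell types passed, and markers of blood cells and of heart muscle set single lungs apart. Sftpc, the surfactant protein of alveolar type 2 cells, read 13.92 to 13.99 in normoxia and 13.83 to 13.94 in hypoxia (adjusted p = 0.367). Of 14 type 2 cell markers 1 was lower, the alarmin Il33, by 0.51, which was lost without N1, N2, H1 or H2 (0.0727 to 0.0957). No secretory cell (11), ciliated cell (16), mesothelium (10), platelet (10) or liver (15) marker passed in limma; at an unadjusted p under 0.05 there were 2, 0, 1, 1 and 3. Of 19 fibroblast markers 1 rose, Mfap5 (0.41), a microfibril protein whose call was lost without any array but N3 (0.0539 to 0.156).

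Blood cell markers did not move as 1 group. In the mast cell list Kit, the stem cell factor receptor, read 10.78, 10.56, 10.59 and 10.59 in N1 to N4 and 9.78, 9.76, 10.04 and 10.04 in H1 to H4. All hypoxic lungs were lower (1.66-fold lower, log2 change -0.73, SE 0.09, adjusted p = 0.000173). The transcription factor Gata2 fell by 0.58 and lost its call without N1, H1, H2 or H4 (0.0628 to 0.0887), while the list's mean ran from -0.39 in H3 to 0.78 in H4. Kit and Gata2 are also expressed outside mast cells, and they went against most of the list. Of 14 mast cell markers 10 were above 0 and 4 below, with a median change of 0.22. Of 16 neutrophil markers 12 were below 0, with a median change of -0.53; the only 1 to pass, Lcn2, went up, and it is also made by epithelium. Prdm1, a plasma cell and lymphocyte regulator, fell by 0.42 (adjusted p = 0.00851), and the eosinophil receptor Ccr3 by 0.36, near the bottom of the scale (4.28 to 4.83), lost without any array but N3 (0.052 to 0.112). Of 8 plasma cell markers 4 were above 0 and 4 below, and of 10 eosinophil and basophil markers 5 and 5. The mean of the latter list was 0.24, 0.23, -0.02 and 0.22 in H1 to H4, against -0.15 to 0.08 in normoxia.

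Heart muscle genes were high in N3 and N4. Myl7, the atrial myosin light chain, read 7.26, 7.07, 11.66 and 12.83 in N1 to N4 and 8.72, 7.10, 9.06 and 6.85 in H1 to H4. Myh6, the cardiac myosin heavy chain, read 6.78, 6.44, 9.41 and 10.90 in N1 to N4 and 7.28, 6.90, 7.42 and 6.50 in H1 to H4. Both genes set N3 and N4 apart from the other 6 lungs, as did Csrp3 and Mb, and none of 20 cardiac markers passed in limma, with 2 at an unadjusted p under 0.05. The mean log2 value over the 20 markers ran from 6.92 to 8.97 in normoxia and from 6.95 to 7.38 in hypoxia. Rat pulmonary veins carry a sleeve of heart muscle, and the part of such tissue in other differences was not tested. Without N3 and N4 together, 784 genes passed, 375 higher and 409 lower, and 542 of them were among the 817.

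**Figure D5:**
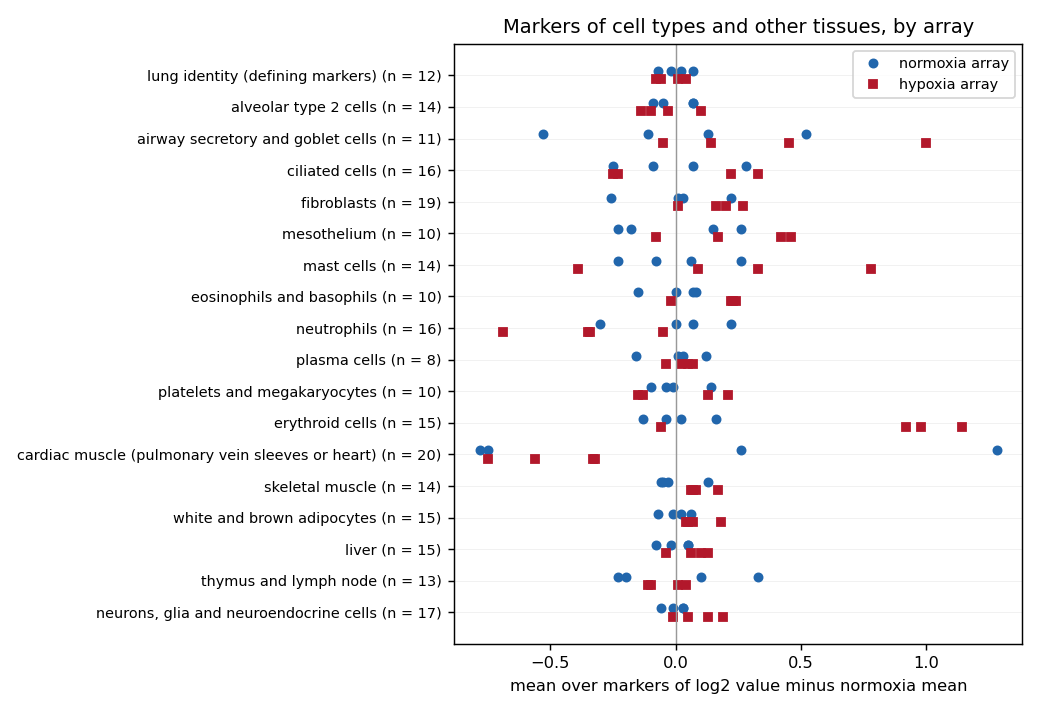
Mean over the markers of each cell type or tissue of the log2 value minus the gene's normoxia mean (horizontal axis), 1 point per array, with circles for normoxia and squares for hypoxia. Erythroid squares lie near 1 except H3, which lies at -0.06, and the cardiac muscle circles of N3 (0.26) and N4 (1.28) lie apart.

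Skeletal muscle (14), fat (15), lymphoid (13) and nerve (17) lists gave 1 call each, all upward and all dependent on single arrays. Their shares, 5.88% to 7.69%, were near the 5.63% of all genes. The values were 0.28 for Myh2 (lost without any array but H3, 0.0524 to 0.152), 0.88 for Fabp4, given above, 1.19 for the lymphoid chemokine Cxcl13 (lost without N1, N2, N3, H2, H3 or H4, 0.0515 to 0.153) and 0.42 for the neuroendocrine enzyme Uchl1 (lost without any array but H3, 0.076 to 0.159). Cxcl13 went against most of its list: 8 lymphoid markers were below 0 and 5 above, with a median change of -0.05. Of the 7 lymphoid markers with an unadjusted p under 0.05 in limma, 5 were lower and 2 higher.

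Some genes differed more between rats than between groups. Ly6al, a Ly6 family gene, read 5.53, 10.94, 5.91 and 5.69 in N1 to N4 and 6.0, 11.08, 10.99 and 6.68 in H1 to H4. N2, H2 and H3 were near 11 and the other 5 lungs between 5.53 and 6.68. Ifit1, an interferon-induced gene, was near 9 to 10 in N1, N2, H1 and H3 and near 6 in N3, N4, H2 and H4. Fam111a, an antiviral protease, read 9.14, 9.13, 7.20 and 6.35 in N1 to N4 and 6.88, 9.97, 9.00 and 10.25 in H1 to H4, again spread over both groups. Mcpt1, a mast cell protease, ranged from 6.97 in H3 to 10.74 in H4. Vsig4, a complement receptor of resident macrophages, read 7.04, 6.88, 6.24 and 6.81 in N1 to N4 and 6.92, 10.28, 10.24 and 11.01 in H1 to H4. H2, H3 and H4 were high and H1 lay with the normoxic lungs, so that a difference of 2.87 in the means did not pass (adjusted p = 0.0748).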

How the data were processed

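The 16 deposited arrays hold log2 values that the authors made with RMA and Partek, per the submitters' processing notes, which give no versions; RMA corrects background, normalizes between arrays and compresses differences of dim probe sets. Of 29214 probe sets 15310 named exactly 1 gene; the brightest probe set per gene left 14506 genes, with no filter on dim genes. Groups came from titles. limma 3.58.1 in R 4.3.3 fitted 4 group means over all 16 arrays with empirical Bayes moderation, and Benjamini-Hochberg values were taken over all genes (threshold 0.05); SE is from that fit. On simulated data 64.2%, 98.5% and 100% of genes changed by 0.5, 1 and 2 on the log2 scale were recovered. Named genes were the 15 largest changes each way with no overlap and up to 4 passing genes per list. To these came 16 chosen genes and those with the largest SD. Kcne4, Kcnn3, Plxna2, Efna1, Tfpi2, F10, Serping1 and Tfpi were added after their values were seen, to complete their lists' counts. Alox15 was added likewise, because it weighs on its list's mean. Genes and the 56 lists were chosen with earlier results of these data known. The number of arrays limits precision, 4 per group, and nothing but the rat number marks them as separate animals, so p-values measure the spread between these arrays. Order of submission follows the groups, and batch and treatment cannot be told apart. No genome build is given, so array positions are not used.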

Additional observations from a re-analysis of the deposited data

Results flagged for a closer look

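Of 390 sets of 4 arrays examined (named genes and list means in each group), 23 held 1 array whose gap to the nearest other was large against the group's range; chance alone gives about 1 in 20 such flags. Among list means relative to normoxia these were ribosomal proteins in H4 (0.08), guidance cues in H2 (-0.02), antigen presentation in H3 (-0.15), the circadian clock in N1 (0.24), eosinophils and basophils in H3 (-0.02) and skeletal muscle in N4 (0.13). Among hypoxic lungs, H4 stood apart for Rbp7 (8.88), Abcb1b (8.04), Ldha (13.31) and Edn1 (10.29), H1 for Dkk3 (11.10), Mfap5 (11.02) and Kcnk3 (9.19), and H3 for Gata2 (10.99). Among normoxic lungs, N1 stood apart for Ace (13.19) and Kit (10.78), N2 for Fzd8 (10.31), Vipr2 (8.65) and Ly6al (10.94), N3 for Ntn1 (9.92), and N4 for Amd1 (9.49), Rsad2 (7.35) and Sftpc (13.92).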

How the results depend on the processing

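No paired analysis was possible because the numbers in the titles run on from rat to rat and no number is shared between the groups. No gene named as called changed sign under any alternative run, but the balance of the calls did: 465 higher and 352 lower as reported became 431 and 447 with quantile normalization repeated, 484 and 488 with every probe set tested, and 375 and 409 without N3 and N4. With N4 counted as hypoxic, 40 genes passed (28 higher, 12 lower), and 7 of the 117 named genes that had passed did so. Leaving out 1 array gave 428 to 986 calls in all, 249 to 578 higher and 174 to 408 lower. The 8 arrays alone gave 581 calls, with 220 lower in place of 352. Counts stayed within 1.5 times of the reported 817 with each array centred on its median (819), quantile normalization repeated (878, 49.1% of them higher against 56.9%), the dimmest genes removed (909), probe sets averaged (819), every probe set tested (972), an intensity trend (838), array weights (1153), or, chosen after seeing the data, without N3 and N4 (784). Of 117 named genes past the threshold, 74 passed in all 8 fits without 1 array. The arrays carry no count of molecules, so a small change of a dim gene may be missed.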
